A study of Mus musculus with 23 samples.

Results

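The 39 genes described here encode the machinery that copies DNA once per cell division and the cyclins and kinases that start it. They comprise 14 genes of origin recognition and licensing, 6 of helicase activation, 6 of the sliding clamp and its loader, 8 of the polymerases, the primase and the single-strand binding complex, and 5 cyclins and kinases. Their regions of open chromatin were taken from 9 ATAC-seq peak lists made from the maxillary prominence of mouse embryos, which gives rise to the upper jaw. Peaks overlapping by at least 1 bp were merged, and a region belonged to a gene when that gene was the nearest protein-coding one within 100 kb. The 39 genes held 126 regions of the 107065 that lay within 100 kb of a gene, and 36 of these 126 had their summit within 1 kb of a gene start or end. These 36 are called boundary regions below, the other 90 distal regions, and a list calls a region when 1 of its peaks overlaps it.

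Mesenchyme was compared at embryonic day 10.5 (E10.5), E11.5 and E12.5, with 3 biological samples and 3 peak lists per stage. All samples were wild type and of the C57BL/6 strain, no group carried a transgene or received an agent, and the ectoderm had been removed with the enzyme Dispase II. The labels do not give how many embryos went into a sample. ATAC-seq marks open chromatin through the sites where the Tn5 transposase inserts adapters, so a peak says where DNA was accessible and not how much RNA a gene made. In such bulk samples, fewer cells with an open region and weaker opening in each cell cannot be told apart.

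Replication begins when the origin recognition complex (Orc1 to Orc6) with Cdc6 and Cdt1 loads the Mcm2 to Mcm7 helicase onto DNA in G1. Cdc45, the GINS complex (Gins1 to Gins4) and Mcm10 then turn the loaded ring into an active helicase, under control of cyclin-dependent kinases. At the fork, polymerase alpha with its primase lays primers, replication factor C loads the PCNA clamp, and polymerases epsilon and delta extend the strands while RPA covers single-stranded DNA. Many of these genes are transcribed periodically under E2F factors and their repressive partners, whereas the mitotic cyclin and kinase genes Ccnb1 and Cdk1 are known for CCAAT boxes and cell cycle homology elements. Facial mesenchyme proliferates strongly at these ages.

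The lists differed in length. The E10.5 lists held 16057, 19095 and 14886 peaks, the E11.5 lists 5682, 24908 and 41457, and the E12.5 lists 26584, 50361 and 19139. The highest fold enrichment at a summit, the authors' own value, was 5.83 to 7.47 in the E10.5 lists, 17.9 to 20.4 in the E11.5 lists and 6.62 to 14.7 in the E12.5 lists. Read depth is unknown because the lists hold no counts. E11.5 sample 1, the shortest list, and E11.5 samples 2 and 3, with the most gene boundaries called, stand apart, so most results that rest on them are given with and without them or at equal list length. The numbers inside the peak names were 489, 534 and 596 in the E10.5 lists, 227, 239 and 312 in the E11.5 lists and 319, 572 and 600 in the E12.5 lists. The number of E12.5 sample 1 was thus next to those of E11.5. Its highest fold, 14.7, was also nearer to theirs than the 7.19 and 6.62 of E12.5 samples 2 and 3. No label says what the numbers mean or how they would group the lists. If they mark batches, the E11.5 stage cannot be told apart from a batch, which may also hold E12.5 sample 1. Of 12 mesenchyme markers, 3 to 5 had a called boundary region in the E10.5 lists, 1 to 8 in the E11.5 lists and 4 in each E12.5 list, with Prrx1 and Alx4 in no list. Of 8 epithelial markers it was 0 to 1, 0 to 2 and 0 to 3, of 6 endothelial markers 1 to 2, 0 to 2 and 0 to 2, and of 5 neuronal and glial markers 1 to 3, 1 to 3 and 0 to 2. Of 4 muscle markers at most 1 was called in any list, and of 4 blood markers only Spi1, in 2 E11.5 lists. The part of such cells in the results below was not tested.

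Promoter sequence is shown for the 3 genes whose boundary region was gained or lost between stages, Ccnb1, Orc3 and Pola1. Cdk1, chosen after its values were seen, is added as a gene called in all 9 lists that carries all 3 motifs searched. Each sequence runs 5′ to 3′ on the gene's own strand, from 250 bases before the start to 50 after it, and comes from RefSeq on GRCm38.p6. Capitals mark letters of E2F sites (TTTCCCGC, TTTGGCGC, TTTCGCGC or TTCCCGCC), of cell cycle homology elements (TTTGAA or TTCGAA) and of the CCAAT box (CCAAT), on either strand. The windows are chr13:100786437-100786736 for Ccnb1, chr4:34614893-34615192 for Orc3, chrX:93632106-93632405 for Pola1 and chr10:69352863-69353162 for Cdk1, all on the minus strand.
Ccnb1: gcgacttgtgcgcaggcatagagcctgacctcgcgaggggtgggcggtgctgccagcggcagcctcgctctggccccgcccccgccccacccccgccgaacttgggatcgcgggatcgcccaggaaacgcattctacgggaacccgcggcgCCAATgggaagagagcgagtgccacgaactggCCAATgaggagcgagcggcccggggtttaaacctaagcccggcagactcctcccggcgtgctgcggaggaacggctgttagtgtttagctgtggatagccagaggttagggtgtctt
Orc3: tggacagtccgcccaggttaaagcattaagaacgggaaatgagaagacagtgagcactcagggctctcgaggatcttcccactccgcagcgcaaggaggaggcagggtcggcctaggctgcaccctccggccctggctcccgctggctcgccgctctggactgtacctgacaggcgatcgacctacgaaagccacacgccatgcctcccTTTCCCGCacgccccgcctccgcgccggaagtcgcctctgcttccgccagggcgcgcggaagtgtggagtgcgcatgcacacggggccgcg
Pola1: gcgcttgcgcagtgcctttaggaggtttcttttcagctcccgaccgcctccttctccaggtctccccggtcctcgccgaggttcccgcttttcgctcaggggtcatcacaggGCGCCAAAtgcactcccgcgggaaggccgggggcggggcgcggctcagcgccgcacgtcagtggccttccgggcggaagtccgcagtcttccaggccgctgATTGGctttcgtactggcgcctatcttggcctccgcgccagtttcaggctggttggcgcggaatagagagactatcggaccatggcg
Cdk1: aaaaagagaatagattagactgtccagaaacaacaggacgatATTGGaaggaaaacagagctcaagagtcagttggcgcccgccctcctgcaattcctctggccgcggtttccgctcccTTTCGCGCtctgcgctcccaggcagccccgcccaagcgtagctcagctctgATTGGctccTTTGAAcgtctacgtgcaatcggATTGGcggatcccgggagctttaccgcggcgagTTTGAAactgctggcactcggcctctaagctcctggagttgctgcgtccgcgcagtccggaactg

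The Ccnb1 window holds CCAAT at -99 to -95 and -67 to -63 from the start, and the peak summit of the merged region lay at -93. The Orc3 window holds 1 E2F sequence at -41 to -34, with the summit at -7. The Pola1 window holds an E2F sequence at -138 to -131 and a CCAAT box at -37 to -33, both on the opposite strand, with the summit at -63. The Cdk1 window holds an E2F sequence at -131 to -124, TTTGAA at -71 to -66 and at -15 to -10, and 3 CCAAT boxes on the opposite strand, with the summit at -93. A match of letters is a description of the sequence and not a binding site.

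Most of the replication and cell cycle genes had open chromatin at a gene boundary in at least 1 list. Of the 39 genes, 33 had such a boundary region, or 84.6%, against 57.8% of all 21631 protein-coding genes. E11.5 sample 3 alone called all 33, and 45.2% of all genes, whereas the E10.5 and E12.5 lists called 11 to 20 of the 39. All 29 boundary regions of genes with a known strand lay at the gene start and 0 at the gene end. Of the 36 boundary regions, 28 had their summit within 200 bp of the boundary, with a median of 102.5 bp. In the 29 regions with a known start the median summit lay at -63 bp from it, and 21 of these summits fell in the 300-base promoter window. The regions just inside the 1 kb limit were those of Mcm5 at 776 bp and Ccna2 at 843 bp, and those just outside it lay at 1221 and 1298 bp.

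The 6 genes with no boundary region by this assignment each had a peak at their start or, for Mcm4, whose strand is not known here, at 1 of its ends. For Orc1, Orc4 and Rfc1 the annotated gene begins upstream of the RefSeq start, so that the region at that start fell among the distal ones, with summits at -98, -81 and -66. The Orc4 start region at chr2:48948800-48950257 was called by all lists except E12.5 sample 3, and its median rank by fold was at percentile 96.6 of a list's peaks. The Orc1 start region, chr4:108578951-108579734, was called by 6 lists, E10.5 samples 1 and 2, all 3 at E11.5 and E12.5 sample 2. The Rfc1 start region, chr5:65335239-65335886, was called by E10.5 sample 1 and all 3 E11.5 lists. For Mcm4, Pcna and Rpa3, which had no region of their own, a region within 1 kb of the gene was nearer to a neighbour. These shared regions were among the strongest in their lists. The Pcna start (the clamp itself), shared with Cds2, was called by all lists except E12.5 sample 3 at a median percentile of 97.9. The Rpa3 start, shared with Umad1, and the Mcm4 region, shared with Prkdc, were called by all lists except E12.5 sample 1 at median percentiles of 98.1 and 95.8. Such a shared region cannot be given to either gene. With every region within 1 kb of a gene or transcript start or end counted for that gene, an assignment chosen after the values were seen, 39 of the 39 genes had a region in some list, against 67.7% of all genes. Here, too, E11.5 sample 3 alone called all 39, against 55.7% of all genes in that list.

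**Figure D1:**
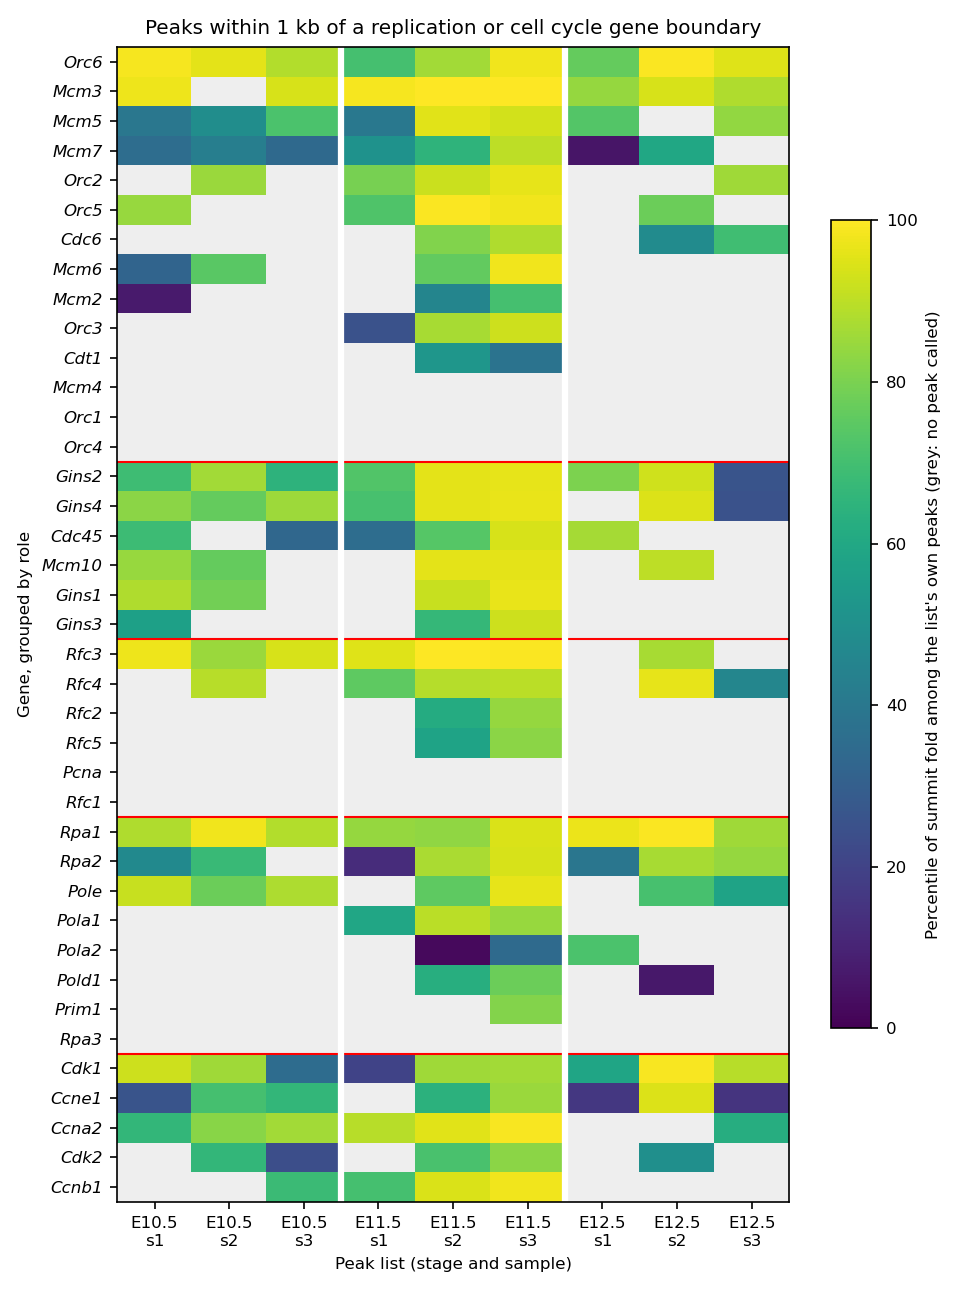
Rank of the summit fold of each boundary region, as a percentile of all peaks in the same list (colour, grey where no peak was called), for the 39 genes grouped by role (rows) in the 9 peak lists (columns, s1 to s3 are the samples of a stage). E11.5 samples 2 and 3 show 32 and 33 genes called, against 18 in E11.5 sample 1 and 11 to 20 in the E10.5 and E12.5 lists. The share over all protein-coding genes was also highest in E11.5 samples 2 and 3, at 43.2 and 45.2%. It was 18.2% in E11.5 sample 1 and 16.3 to 31.1% in the E10.5 and E12.5 lists.

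More of these boundaries were called at E11.5 than at the other stages, in 2 of its 3 lists. Of the 39 genes, 20, 18 and 15 had a called boundary region in the E10.5 lists, 18, 32 and 33 in the E11.5 lists, and 11, 17 and 14 in the E12.5 lists. E11.5 samples 2 and 3 were above every other list, whereas E11.5 sample 1 lay within the range of E10.5. The mean share was 45.3 ± 6.45% for E10.5, 70.9 ± 21.5% for E11.5 and 35.9 ± 7.69% for E12.5 (SD, n = 3 lists each). The same share over all protein-coding genes was 26.3 ± 3.59%, 35.5 ± 15.0% and 23.1 ± 7.44%, so the whole genome moved in the same order. The 39 genes were above all genes in every list, by 1.40 to 2.53 times. That ratio averaged 1.73 ± 0.195 for E10.5, 2.10 ± 0.374 for E11.5 and 1.59 ± 0.167 for E12.5, and its ranges at E12.5 and E11.5 did not overlap, while that of E10.5 overlapped both. No test was made over the 39 genes.

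**Figure D2:**
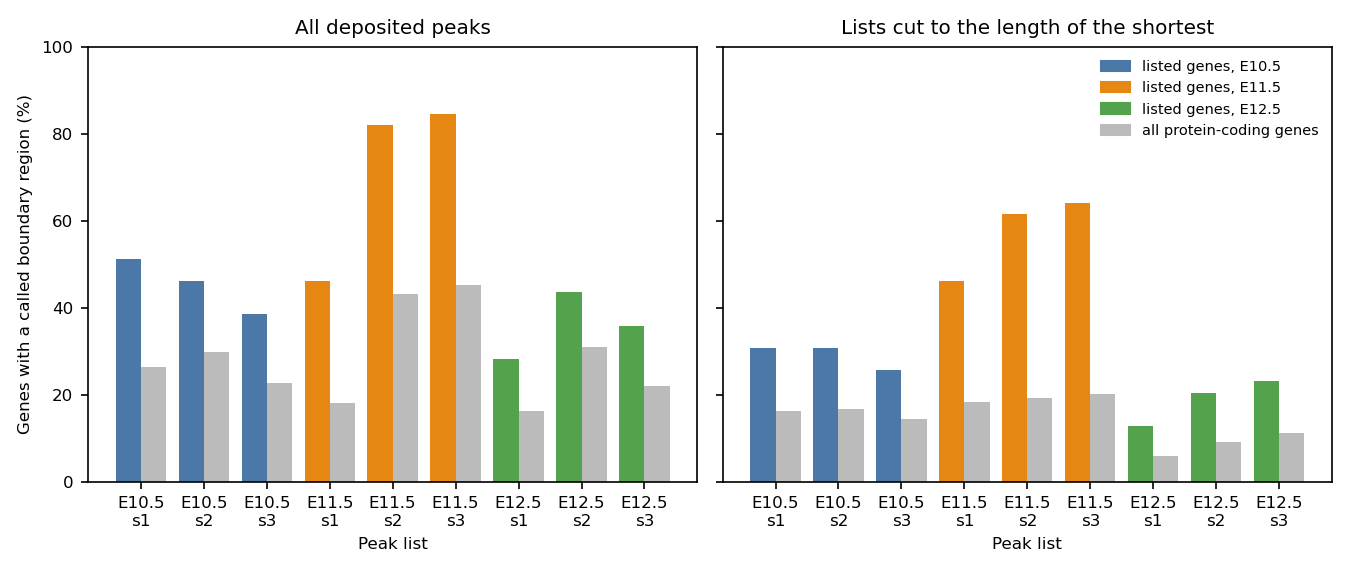
Share of genes with a called boundary region (per cent) in each of the 9 peak lists, for the 39 listed genes (coloured by stage) beside all protein-coding genes (grey), with all deposited peaks (left) and with each list held to its 5682 strongest peaks (right). The coloured bar is higher than the grey one in all 9 lists of both panels.

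Holding every list to its 5682 strongest peaks by −log10 q, the length of the shortest, separated the stages further. The genes with a called boundary region then numbered 12, 12 and 10 in the E10.5 lists, 18, 24 and 25 in the E11.5 lists, and 5, 8 and 9 in the E12.5 lists. The 3 stages no longer overlapped. Over all genes the shares at this length were 14.4 to 16.6% for E10.5, 18.2 to 20.2% for E11.5 and 5.87 to 11.2% for E12.5, which also did not overlap. For the 39 genes they were 25.6 to 30.8%, 46.2 to 64.1% and 12.8 to 23.1%. The ratio of the listed genes to all genes was then 1.78 to 1.90 for E10.5, 2.53 to 3.19 for E11.5 and 2.06 to 2.25 for E12.5. It was above that of E10.5 in every E12.5 list, the reverse of the order of the means with all peaks, and E11.5 had the highest mean both times.

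Where boundary regions were called, their median rank was high, though single regions ranked as low as percentile 2.47, in E11.5 sample 2. The median percentile of the listed genes' boundary regions among all peaks of a list was 71.8 to 78.1 in the E10.5 lists, 70.8 to 92.7 in the E11.5 lists and 73.3 to 90.0 in the E12.5 lists. For all boundary regions it was 70.6 to 71.4, 56.9 to 81.4 and 61.6 to 67.9, and the listed genes were above it in each of the 9 lists. The values were closest in E10.5 sample 3, with 71.8 against 71.4.

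Constant calls were found at 4 of the 39 genes, or 10.3%, against 4.85% of all genes. These were Cdk1 (the kinase that drives mitosis), Gins2 (a GINS subunit), Orc6 (the smallest origin recognition subunit) and Rpa1 (the large subunit of RPA). Orc6 had a median percentile of 95.1, and its fold was 5.33, 3.89 and 3.17 in the E10.5 lists, 5.94, 8.28 and 8.77 in the E11.5 lists and 3.94, 3.92 and 3.78 in the E12.5 lists. Rpa1 never ranked under percentile 83.4, with folds of 4.04, 4.25 and 3.17, then 6.87, 7.78 and 6.56, then 5.03, 4.01 and 3.38 in the same order. Both genes thus ranked high in every list, Orc6 lowest in E11.5 sample 1 at percentile 70.6. Cdk1 and Gins2 varied more. Cdk1 ranked between percentiles 20.3 and 99.1 with a median of 85.6, and Gins2 between 25.9 and 96.3 with a median of 80.4. Folds are on each list's own scale, so their order between stages is not a comparison of accessibility.

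All 3 lists of E10.5 called 11 of the 39 genes, or 28.2%, against 15.8% of all genes. All 3 lists of E11.5 called 18, or 46.2%, against 17.9%, and all 3 of E12.5 called 7, or 17.9%, against 8.84%. The listed genes were above all genes at each stage.

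Between stages a region was counted as gained when each list of the later stage called it and no list of the earlier did, and as lost the other way round. An exact two-sided test of 3 lists against 3 has a smallest p of 0.1, so these counts carry no test. At E11.5 against E10.5, 2 of the 36 boundary regions were gained, or 5.56%, against 2.4% of all 16910 boundary regions, and 0 were lost, against 0.183%. At E12.5 against E11.5, 3 were lost, or 8.33%, against 5.45% of all, and 0 were gained, against 0.373%. At E12.5 against E10.5, 0 were gained and 0 were lost, against 0.337% and 1.51% of all. In the gained and in the lost regions alike, 1 region fewer would bring the share close to that over all boundary regions. The regions in question were those of Orc3 and Pola1, called by all 3 E11.5 lists and by no other, and that of Ccnb1, called also by E10.5 sample 3.

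Orc3 encodes a core subunit of the origin recognition complex, and its start lies 15 bp from that of Rars2, which points the other way. Its region, chr4:34614649-34615181, had folds of 4.34, 8.41 and 5.93 in the E11.5 lists, at percentiles 25.3, 86.9 and 92.3. Pola1 encodes the catalytic subunit of polymerase alpha, and its region, chrX:93631906-93632543, had folds of 5.43, 8.93 and 4.49 at percentiles 59.2, 89.8 and 84.5. Both regions ranked lower in E11.5 sample 1 than in the other E11.5 lists. Ccnb1 encodes cyclin B1, the mitotic partner of Cdk1. Its region, chr13:100786267-100786843, had a fold of 2.75 in E10.5 sample 3 and of 5.94, 10.1 and 8.62 in the E11.5 lists, at percentiles 68.1 and then 70.6, 94.3 and 97.9.

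Without E11.5 sample 1 many more boundary regions met these definitions. Of the 36, 33 were called by both E11.5 samples 2 and 3, or 91.7%, against 50.0% of all boundary regions. Called by both and by no E12.5 list were 12, or 33.3%, against 18% of all. These were the boundary regions of Ccnb1, Cdt1, Gins1, Gins3, Mcm2, Mcm5 (of its 2 regions, the upstream one, 776 bp from the gene), Mcm6, Orc3, Pola1, Pola2, Rfc2 and Rfc5. The other Mcm5 boundary region was called by 2 E12.5 lists. Pola2 had another boundary region too, 269 bp from the gene, called by E12.5 sample 1 alone. Called by both E11.5 samples 2 and 3 and by no E10.5 list were 9, or 25% of the 36, against 12.0% of all. The number of gained or lost regions therefore rests on the shortest list, and the shares without it were above those of all boundary regions too. Some of these regions, here and over all genes, entered the set only through E11.5 lists, so the shares are a description and not a test.

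By the number of lists, 26 of the 36 boundary regions were called by fewer lists at E12.5 than at E11.5, or 72.2%, against 51.7% of all boundary regions, and 2 by more, or 5.56%, against 26.3%. At E11.5 against E10.5, 20 were called by more lists, or 55.6%, against 43.0%, and 2 by fewer, or 5.56%, against 17.9%. At E12.5 against E10.5, 6 were called by more, or 16.7%, against 27.6%, and 14 by fewer, or 38.9%, against 31.1%. The E11.5 lists are shared by 2 of these 3 comparisons and the E10.5 and E12.5 lists likewise, so the counts are not independent of each other. A region called by E11.5 lists alone entered the set through them, which fixed its direction in these counts. Called by E11.5 samples 2 and 3 only were 5 of the 36, or 13.9%, against 7.60% of all boundary regions. Called by all 3 E11.5 lists only were 2, or 5.56%, against 1.85%.

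Among the 14 genes of origin recognition and licensing, 7, 5 and 4 had a called boundary region in the E10.5 lists, 7, 11 and 11 in the E11.5 lists and 4, 5 and 5 in the E12.5 lists. The share over all protein-coding genes, to set beside the counts of each role, was 26.5, 29.8 and 22.6% in the E10.5 lists. It was 18.2, 43.2 and 45.2% in the E11.5 lists and 16.3, 31.1 and 22.0% in the E12.5 lists. The helicase subunits were unequal. Mcm3 was called in 8 lists, all except E10.5 sample 2, at a median percentile of 95.7. Mcm5 was called in 8 lists, all except E12.5 sample 2, and Mcm7 in 8, all except E12.5 sample 3, with Mcm7 at percentiles of only 5.54 to 90.0. In contrast Mcm6 was called in 4 lists and Mcm2 in 3, both in E11.5 samples 2 and 3 and in no E12.5 list, although the 6 proteins form 1 ring. Cdc6 and Cdt1, the loading factors, were called at E10.5 in 0 lists. Cdt1 was called only in E11.5 samples 2 and 3, and Cdc6 in these and in E12.5 samples 2 and 3. Orc2 and Orc5 were called in 5 lists each, including all 3 at E11.5.

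Among the 6 helicase activation genes, 6, 4 and 3 were called in the E10.5 lists, 3, 6 and 6 in the E11.5 lists and 2, 3 and 2 in the E12.5 lists. The GINS genes split into pairs. Gins2 was called in 9 lists and Gins4 in 8, whereas Gins1 was called in 4 and Gins3 in 3, both in no E12.5 list. Cdc45, which joins GINS and Mcm2 to Mcm7 in the active helicase, was called in 6 lists, and Mcm10 in 5.

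Among the 6 clamp and loader genes, 1, 2 and 1 were called in the E10.5 lists, 2, 4 and 4 in the E11.5 lists and 0, 2 and 1 in the E12.5 lists, with a median of 2 lists per gene. They were below the share over all genes in samples 1 and 3 of E10.5 and of E12.5, whereas the other roles were above it in every list. By the wider assignment, which counts the start regions of Pcna and Rfc1, the median was 5, equal to that of the polymerase group. Rfc3, a small loader subunit, was called in 7 lists at a median percentile of 94.9, and its fold was 5.01, 3.16 and 3.42 in the E10.5 lists, 8.53, 16.7 and 11.5 in the E11.5 lists and 2.90 in E12.5 sample 2. It was not called in E12.5 samples 1 and 3. Rfc4 was called in 6 lists. Rfc2 and Rfc5 were each called only in E11.5 samples 2 and 3.

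Among the 8 genes of the polymerases, the primase and RPA, 3, 3 and 2 were called in the E10.5 lists, 3, 6 and 7 in the E11.5 lists and 3, 4 and 3 in the E12.5 lists. Rpa1 and Rpa2 were called in 9 and 8 lists and Pole, the catalytic subunit of polymerase epsilon, in 7. The polymerase alpha and primase genes were called in few lists. Pola1 and Pola2 were called in 3 lists each and Prim1, the catalytic primase subunit, in 1, E11.5 sample 3. Pold1, the catalytic subunit of polymerase delta, was called in E11.5 samples 2 and 3 and in E12.5 sample 2, there at percentile 6.40.

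Among the 5 cyclins and kinases, 3, 4 and 5 were called in the E10.5 lists, 3, 5 and 5 in the E11.5 lists and 2, 3 and 3 in the E12.5 lists, with a median of 7 lists per gene, the most of the 5 roles by either assignment. Ccne1 (cyclin E1, which starts S phase with Cdk2) was called in 8 lists, Ccna2 (cyclin A2) in 7, Cdk2 in 5 and Ccnb1 in 4. The Ccna2 region ranked at percentiles 89.3 to 99.0 in the E11.5 lists and 62.3 in E12.5 sample 3, its only E12.5 call.

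**Figure D3:**
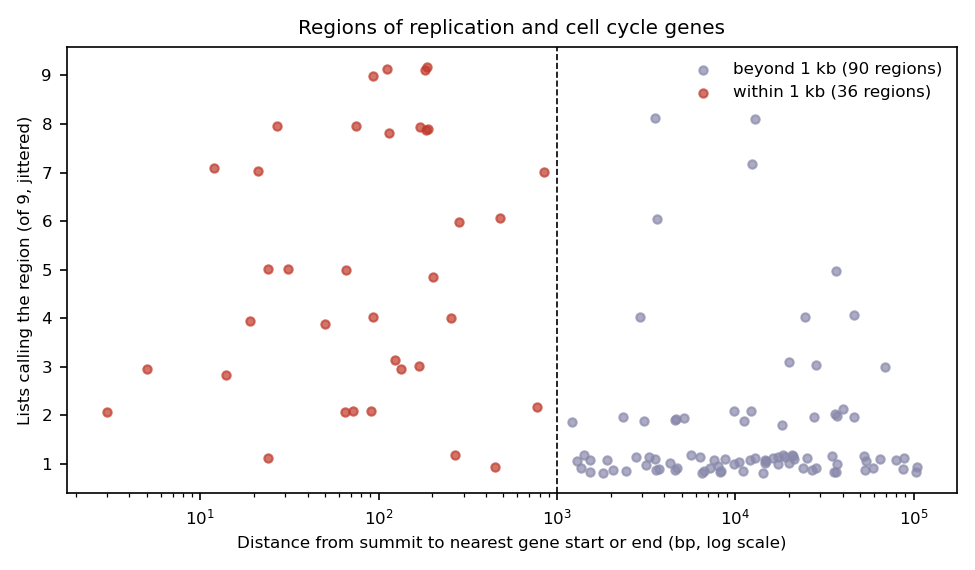
Each of the 126 regions by the distance from its summit to the nearest gene start or end (horizontal, bp, log scale) and by the number of the 9 lists calling it (vertical, jittered), with the 1 kb limit dashed. The 36 boundary regions spread over 1 to 9 lists, whereas 64 of the 90 distal regions (71.1%, against 74.0% of all distal regions) were called by 1 list.

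The distal regions were called about as often as distal regions of all genes. Of the 90, 64 were called by 1 list, or 71.1%, against 74.0% of all 90155 distal regions, and 15 by 2 lists, or 16.7%, against 15.3%. The other 11 were called by 3 or more lists, and of the 90, 38 lay inside gene bodies and 52 outside. The mean share called per list was 12.6% for E10.5, 14.4% for E11.5 and 28.1% for E12.5, against 10.2%, 14.2% and 25.4% of all distal regions. E12.5 sample 2, the longest list, called 42 of the 90. At E12.5 against E11.5, 53 of the 90 were called by more lists, or 58.9%, against 56.3% of all distal regions. The shares of distal regions were thus close to those of all genes at each stage. The opposite order of the stages at boundaries, lowest at E12.5, and at distal regions, highest at E12.5, was also present over all genes, with 32.1% of boundary and 25.4% of distal regions called at E12.5 against 48.7% and 14.2% at E11.5.

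Ccne1 and Cdk1 held 16 and 14 of the 90 distal regions and Mcm5 held 8. Ccne1 had a pair of recurrent regions downstream of the gene, the chr7:38084764-38085375 region 12931 bp from the gene, called by 8 lists, and the chr7:38085446-38086073 region 12404 bp away, called by 7. The other 2 of its regions called by more than 3 lists lay 36785 and 24599 bp away, with 5 and 4 lists. Cdk1 had a region 46074 bp upstream, chr10:69398096-69399253, called by 1 E10.5 list, 1 E11.5 list and 2 E12.5 lists. Nearest-gene assignment does not show which gene such a region acts on. Among distal regions, 0 of the 90 were gained and 0 lost at E11.5 against E10.5, against 0.332% and 0.145% of all, and 0 and 0 at E12.5 against E10.5, against 0.515% and 0.115%. At E12.5 against E11.5, 0 were gained, against 0.613%, and 1 was lost, against 0.518%, the Rfc1 start region described above.

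Calls per gene were also tested with limma against the calls expected from each list's length. The value tested was the calls minus expected calls over all partly called regions of a gene, scaled by the square root of the variance expected, and a difference is in units of that root. Of 13686 genes with 2 or more such regions, 24 were listed genes. The test's prior degrees of freedom were infinite, so the standard error was 0.839 for every gene and a gene's own spread between lists carried no weight. The expected calls used the same list term for boundary and distal regions. Over all genes, a mean of 32.1% of boundary regions was called at E12.5 against 48.7% at E11.5, and of distal regions 25.4% against 14.2%. Boundary regions were 36 of the listed genes' 126, against 16910 of 107065 over all genes. A gene's mix of the classes thus enters its difference, and the part of that mix was not tested. At E12.5 against E11.5, Orc3 was the 1 listed gene that passed, with a difference of -2.63 ± 0.839 (SE) and a Benjamini-Hochberg adjusted p of 0.0447 (limma, n = 3 lists each). Its 2 regions gave 0, 0 and 0 calls at E12.5 and 1, 1 and 1 at E11.5. The boundary region of Orc3 was called by E11.5 lists alone and entered the set through them, which fixed its direction. Without that region Orc3 would have had too few regions to be tested. Its p is therefore a description and not independent support for a change. The calls expected were 0.505, 0.962 and 0.343 at E12.5 and 0.0678, 0.487 and 0.772 at E11.5. Orc3 was below expectation in each E12.5 list and above it in each E11.5 list, but it passed in only 4 of 11 alternatives, with an adjusted p of 0.0147 to 0.432. Without E11.5 sample 1 the adjusted p was 0.349, and it was also above 0.05 without E10.5 sample 2 (0.0686) or 3 (0.0605) and without E12.5 sample 1 (0.130), 2 (0.217) or 3 (0.0934).

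Ccnb1 had a difference of -2.52 at E12.5 against E11.5, with an adjusted p of 0.0587 (limma), and its 4 regions gave 0, 1 and 0 calls at E12.5 and 1, 1 and 3 at E11.5. The p passed only without E11.5 sample 2, at 0.0402. Pola1 had a difference of -1.81 with an adjusted p of 0.222, and its 3 regions gave 0, 0 and 1 calls at E12.5 and 1, 1 and 1 at E11.5. Neither passed, although both lost their boundary region by the count of lists. Ccnb1 and Pola1, too, were not tested at equal list lengths or at −log10 q of at least 5.

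Over all genes, limma called 123 with more calls (0.899%) and 436 with fewer (3.19%) at E12.5 against E11.5, and 2468 had an unadjusted p under 0.05. The balance turned to more calls in other settings, with 73 more and 34 fewer at equal list lengths, 21 and 0 at −log10 q of at least 5, and 71 and 44 for genes with 10 or more regions, and it was 69 and 66 without E12.5 sample 2. Among the 24 listed genes 0 had more and 1 fewer, with 7 at an unadjusted p under 0.05, and the median difference was -0.46, against 0.02 over all genes. The part of their boundary regions in that median was not tested. At E11.5 against E10.5, 33 genes had more (0.241%) and 5 fewer (0.0365%), with 1348 at an unadjusted p under 0.05. The listed genes gave 0 calls, with 1 (Ccnb1) at an unadjusted p under 0.05, difference 1.83 and adjusted p 0.429. Their median difference was 0.67, against -0.04 over all genes. At E12.5 against E10.5, 1 gene had more (0.00731%) and 0 fewer (0%), with 1257 at an unadjusted p under 0.05. The listed genes gave 0 calls here and 0 at an unadjusted p under 0.05, with a median difference of -0.31, against -0.03 over all genes.

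Other cell cycle genes, a list of 94 covering further fork proteins, nucleotide supply, checkpoints, cyclin-dependent kinase switches and inhibitors, E2F and RB proteins and mitosis, were also called most in E11.5 samples 2 and 3. Of these, 86 had a boundary region, or 91.5%, against 57.8% of all genes. In all 9 lists 10 were called, or 10.6%, against 4.85%. The share called was 56.4, 55.3 and 45.7% in the E10.5 lists, 39.4, 81.9 and 80.9% in the E11.5 lists and 29.8, 48.9 and 41.5% in the E12.5 lists. Over all protein-coding genes it was 26.5, 29.8 and 22.6%, then 18.2, 43.2 and 45.2%, then 16.3, 31.1 and 22.0% in the same order. As in the 39 genes and over all genes, E11.5 samples 2 and 3 were the highest and E12.5 sample 1 the lowest. Of the 29 mitosis genes, 15 to 17 were called in the E10.5 lists, 14, 27 and 26 in the E11.5 lists and 7 to 15 in the E12.5 lists. The 5 G1 cyclin and kinase genes differed, with 1 to 2 called in the E10.5 lists, 1 to 2 in the E11.5 lists and 3 to 5 in the E12.5 lists, their highest.

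Of the 110 boundary regions of these 94 genes, 4 were lost at E12.5 against E11.5, those of Cdc7 (the kinase that fires origins), Cenpf (a kinetochore protein), Pole2 (a polymerase epsilon subunit) and Top2a (topoisomerase II alpha). That is 3.64%, against 5.45% of all boundary regions. Gained there were 2, or 1.82%, against 0.373%, of Cdk6 (a G1 kinase) and E2f1 (an E2F factor), the E2f1 region being in no E10.5 list either. At E12.5 against E10.5, 3 were lost, or 2.73%, against 1.51%, of Cenpf, Chek1 (a checkpoint kinase) and Rbl1 (an RB family protein), and 2 gained, or 1.82%, against 0.337%, of Ccnd2 (cyclin D2) and E2f1. At E11.5 against E10.5, 2 were gained, or 1.82%, against 2.4%, of Cdkn1c (a kinase inhibitor) and Pold2 (a polymerase delta subunit), and 0 lost, against 0.183%. The shares lost at E12.5 against E11.5 and gained at E11.5 against E10.5 were thus below those over all boundary regions. Chek1 and Pold2 were named after their values were seen. Of the 67 genes tested by limma, 1 passed, E2f5 (an E2F repressor), with fewer calls at E12.5 against E11.5. Over all genes 436 of 13686 did so, or 3.19%. At an unadjusted p under 0.05 (limma) in that comparison were 12 of the 67, against 2468 of 13686. Its difference was -3.10 with an adjusted p of 0.0120, and its 2 regions gave 0, 0 and 1 calls at E12.5 and 2, 2 and 1 at E11.5. The calls expected were 0.906, 1.36 and 0.690 at E12.5 and 0.170, 0.884 and 1.19 at E11.5. The gap at E11.5 was thus largest in sample 1, the shortest list, and sample 3 was below expectation. E2f5 was not followed in the alternatives, among them that without E11.5 sample 1. In the other comparisons 0 of the 67 passed. At an unadjusted p under 0.05 were 10 at E12.5 against E10.5, against 1257 of all 13686 genes. At E11.5 against E10.5 there were 3, against 1348 of 13686.

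**Figure D4:**
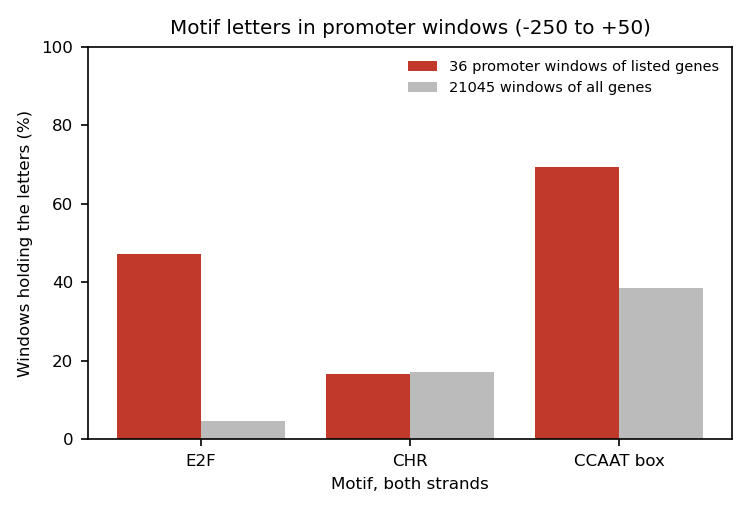
Share of promoter windows (per cent, 250 bases before to 50 after the start) holding the letters of an E2F site, a cell cycle homology element (CHR) or a CCAAT box on either strand, for 36 windows of the listed genes (red) and 21045 windows of all genes (grey). The E2F letters stand in 47.2% of the listed genes' windows and 4.57% of all.

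The promoters of the listed genes were also described by sequence alone, without use of the peaks. The genes were listed by function, and many such genes are known to be under E2F factors. The motif shares therefore describe the list of genes and say nothing about accessibility. RefSeq gave 36 promoter windows for 32 of the 39 genes, and 21045 for 17274 genes in all. The E2F letters were in 17 of the 36 windows, or 47.2%, against 4.57% of all windows. They were found in each role, among them Cdc6, Cdt1, Orc1, Orc3, Orc4, Mcm3, Mcm5, Mcm6 and Mcm7 of licensing, Gins3 of helicase activation, Rfc3 and Rfc4 of the loader, Pola1, Pold1 and Prim1 of synthesis, and Cdk1 and Cdk2. The CCAAT box was in 25, or 69.4%, against 38.5%. The cell cycle homology letters were in 6, or 16.7%, against 17.2%, a share near that of all windows. E2F and homology letters together were in 4, or 11.1%, against 0.599%, namely Cdk1, Gins3, Mcm7 and Rfc3. The E2F forms TTTCCCGC and TTCCCGCC overlap each other by 7 letters, so windows holding a motif were counted and not its sites.

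The windows were also richer in G and C, with a median of 61.8%, against 56.7% for all windows. Their median ratio of observed to expected CpG was 0.889, against 0.574. Base composition thus moved with the motif shares, and its part in them was not tested. A start of another gene on the opposite strand lay within 1 kb for 7 of the 32 genes, or 21.9%, against 8.59% of the 17274. The pairs were Orc3 and Rars2 at 15 bp, Rpa1 and Smyd4 at 50 bp, Orc1 and Prpf38a at 118 bp, Mcm7 and Ap4m1 at 138 bp, Rpa3 and Umad1 at 147 bp, Orc4 and Mbd5 at 241 bp, and Cdc45 and Ufd1 at 322 bp. At such shared starts, too, a peak cannot be given to 1 gene of the pair.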

How the data were processed

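The data were 9 ATAC-seq peak lists (narrowPeak), 1 for each of 3 samples per stage, made from 23 sequencing runs. The submitters' processing notes name Bowtie2, MACS2, deepTools 3.3.1 and the mm10 build. Per the labels, calling used paired-end fragments of each sample and removed blacklisted regions. Read filters, any shift for the Tn5 offset and the MACS2 threshold were not given in the sources used here. For each peak the authors deposited its position, its summit, a fold enrichment over background (a ratio) and, from their peak caller, the significance as −log10 p-value and as −log10 q-value. The smallest deposited −log10 q per list was 1.30 to 1.32. They served here only for ranks, filters and descriptions inside 1 list. Without read counts, depth and read-level precision are unknown.

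Peaks on the 19 autosomes and chromosome X were merged at an overlap of 1 bp (1 peak on chromosome Y was left out). A region went to the protein-coding gene nearest to its strongest summit, within 100 kb, among 21631 genes of RefSeq on GRCm38.p6. Distances were taken to either end of a gene because the gene table gives no strand. Strand came from the promoter sequences, which covered 32 of the 39 genes. Exons and introns were not separated. Expected calls came from a Rasch model, in which the log odds of a call add a term for the list and a term for the region, conditional on the region's number of calls. A gene was tested if it had at least 2 partly called regions (1 to 8 lists). The test was limma 3.58.1 in R 4.3.3, fitted to all 9 lists by stage, with p-values adjusted by Benjamini-Hochberg and a threshold of 0.05. The minimum was lowered to 2 regions from 5 because replication genes have few regions. The procedure was tested on simulated data. Its p-values rest on the differences among these samples, pooled over genes.

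The sample numbers in the labels did not pair the lists: of 9 pairs of lists with the same number, 0 correlated above 0.1. Alternatives were a −log10 q of at least 5, calls only over the strongest summit, equal list lengths, a gene distance of 20 kb, minima of 5 and 10 regions, a 2 kb window, another assignment, a replicate block and leaving out each list.

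The members, gene lists and tests were chosen with earlier results of these data known. By the rule for naming genes, all 39 were accounted for. Calls in every list were given for those with a gained, lost or missing boundary region, passing limma or called in all 9 lists. Genes of the other cell cycle list were named, at most 10 by smallest p, where a boundary region was gained or lost or limma passed. Python 3.11.15, NumPy 2.4.6, pandas 2.3.3 and Matplotlib 3.10.9 were used.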

Additional observations from a re-analysis of the deposited data

How the results depend on the processing

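The mean share of the 39 genes with a called boundary region kept its order between stages (highest at E11.5, lowest at E12.5) in the alternatives below. With −log10 q of at least 5 it was 25.6% at E10.5 and 12.0% at E12.5, over the strongest summit alone 38.5% and 22.2%, and at equal list lengths 29.1% and 18.8%. Counting regions also where another gene was nearer gave 53.0% at E10.5, and the wider assignment, chosen after seeing the data, gave 58.1% and 43.6%. Leaving out 1 list gave 42.3 to 48.7% for E10.5, 59.0 to 83.3% for E11.5 and 32.1 to 39.7% for E12.5.

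The 2 boundary regions gained at E11.5 against E10.5 became 4 at −log10 q of at least 5, 1 over the strongest summit, 4 at equal lengths, and 2 to 9 with 1 list left out (9 without E11.5 sample 1, 4 without E10.5 sample 2). The 3 lost at E12.5 against E11.5 became 7 at −log10 q of at least 5 and 6 at equal lengths, and 3 to 12 with 1 list left out (12 without E11.5 sample 1, 5 without E12.5 sample 2 or 3). The 0 lost at E12.5 against E10.5 became 2, 1 and 2 under the first 3 settings and 0 to 2 with 1 list left out, and the 0 gained became 0 to 1. The 4 called in all 9 lists became 0, 1 and 2, and 2 to 5 with 1 list left out (2 without E11.5 sample 3).

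The 38 genes that limma called at E11.5 against E10.5 became 0 at −log10 q of at least 5, 19 over the strongest summit, 2 at equal lengths, 16 within 20 kb, 14 with 5 or more regions and 9 with 10 or more, and 0 to 155 with 1 list left out. For E12.5 against E10.5 the 1 gene became 0, 7, 63 and 0 under the first 4 settings and 4 with 10 or more regions, and 0 to 7 with 1 list left out. For E12.5 against E11.5 the 559 became 21 at −log10 q of at least 5, 107 at equal lengths, 237 with 5 or more regions and 115 with 10 or more, and 113 to 515 with 1 list left out. The replicate block gave 27, 1 and 523 genes in these comparisons, against 38, 1 and 559 without it. The listed genes called were 0, 0 and 1, so it changed no call of a listed gene. Correlations between lists with the same number were -0.0987 to 0.0223, and 1 list correlated best with its own number. The cause of these shifts was not tested, and what the unknown depth limits could not be measured.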
